A study of Mus musculus with 11 samples.

Results

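Capillary endothelial cells take up fatty acids through a short series of proteins, and 8 genes of that series were followed through mouse glomerular RNA: Gpihbp1, Lpl, Cd36, Fabp4, Fabp5, Pparg, Plin2 and Plin4. All 8 were in the deposited table, among 13734 genes. They were picked by name, with group levels of these same libraries already known, among them higher Gpihbp1 in db/db than in db/m glomeruli. Their group differences are therefore given as a description. The members that passed or missed the test over all genes are counted beside the share of all genes that did so, and nothing is read from those counts. Glomeruli, the capillary tufts that filter blood in the kidney, were isolated and their RNA was sequenced as 11 libraries in 3 groups. The db/m vehicle group (n = 4) came from littermates heterozygous for the db mutation of the leptin receptor, which are not diabetic. The db/db vehicle group (n = 4) came from homozygotes, which are obese and diabetic. The db/db puerarin group (n = 3) came from homozygotes given puerarin, an isoflavone glucoside of kudzu root, by gavage at 20 mg per kg body weight a day. All groups received 5% DMSO from 10 weeks of age for 6 weeks. The labels describe male mice on the BKS background, whereas their strain field reads C57BL/6J. They do not say whether a library is 1 animal or a pool, so p-values cover no more than sample-to-sample spread, part of which may be technical.

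Triglyceride travels in blood inside lipoproteins. Lipoprotein lipase (Lpl) is secreted by cells below the endothelium, is bound by Gpihbp1 on the basal endothelial surface, and is carried by it to the capillary lumen, where it releases fatty acids. Cd36 takes up fatty acids at the cell surface, Fabp4 and Fabp5 carry them in the cytosol, and Pparg is a nuclear receptor that fatty acids activate and that switches on genes of this series, Fabp4 and Cd36 among them. Plin2 and Plin4 coat lipid droplets, where surplus fatty acid is stored as triglyceride. In the kidney Gpihbp1 belongs to endothelium, whereas Plin2, Cd36 and Lpl are made by several cell types, so a whole-glomerulus level is not an endothelial one.

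The sequences just before the transcription start show how the promoters of the fatty acid transporter and the droplet coats differ in the motif that nuclear receptors of the Pparg class bind. RefSeq promoters of build GRCm38.p6 matched 4 of the 8 members, with 1 start each for Plin2, Cd36 and Plin4 and 3 for Pparg. The windows of Plin2 (chr4:86670060-86670309), Cd36 (chr5:17835897-17836146) and Plin4 (chr17:56109803-56110032), all on the minus strand, are printed 5′ to 3′. Those of Plin2 and Cd36 end at the base before the RefSeq start, which is also the start of a deposited transcript. For Plin4 the deposited transcript begins 20 bases further upstream than the RefSeq start, and the printed stretch ends before it. Capitals mark a match to the receptor motif AGGTCA, searched on both strands and here read on the opposite strand as TGACCT.
Plin2 promoter: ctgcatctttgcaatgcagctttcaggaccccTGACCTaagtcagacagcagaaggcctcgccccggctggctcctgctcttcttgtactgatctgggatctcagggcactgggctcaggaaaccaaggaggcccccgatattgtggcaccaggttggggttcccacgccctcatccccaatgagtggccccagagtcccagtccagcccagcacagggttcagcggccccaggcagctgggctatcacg
Cd36 promoter: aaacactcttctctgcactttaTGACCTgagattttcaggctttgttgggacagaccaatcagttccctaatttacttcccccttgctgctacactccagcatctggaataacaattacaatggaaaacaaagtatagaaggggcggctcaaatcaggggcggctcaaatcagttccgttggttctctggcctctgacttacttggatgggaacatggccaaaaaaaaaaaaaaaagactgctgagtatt
Plin4 promoter: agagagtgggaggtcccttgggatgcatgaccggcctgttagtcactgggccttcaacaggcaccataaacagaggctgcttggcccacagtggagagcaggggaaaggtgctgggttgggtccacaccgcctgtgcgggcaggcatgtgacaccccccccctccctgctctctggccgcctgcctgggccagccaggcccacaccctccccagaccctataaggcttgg
This motif lay 218 bases before the start in Plin2 and 228 bases before it in Cd36, and it occurred in 2 of the 3 Pparg windows, of which 1 has 193 bases inside another deposited Pparg transcript. Plin4 had no match, including the 20 bases not printed. Of 32851 mouse promoter windows of this length, 14.0% held AGGTCA. The paired arrangement that a receptor and its partner Rxr occupy together, AGGNCA followed after 1 base by AGGNCA on either strand, was found in none of the 6 member windows and in 0.338% of all windows. The letters TATAAA, searched on both strands, matched in 1 Pparg window, on the opposite strand only (TTTATA), against 12.4% of all windows on either strand. The hypoxia motif ACGTG was in none, against 16.6%. GC content was 61.6% in Plin2, 43.2% in Cd36 and 65.2% in Plin4, beside a median of 52.4% over all windows. A match is a description of letters and not an occupied site.

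Total counts ran from 35369703 to 44244460 per library. Levels are CPM, that is, counts per library size after TMM scaling. In the titles 5 libraries carry an S number and 6 carry a tag of their group. Every group has both kinds of name. The fit carried name form as a term, and for that term 957 of 13734 genes (6.97%) passed the edgeR test. Of the 2 sequencing sites that the labels mention, neither is tied to a library. The podocyte markers Nphs1 and Podxl were at 1178 to 7198 CPM in every library, and the tubule markers Slc34a1 and Umod were also present, at 203 to 1087 and 472 to 3562 CPM. Endothelial markers Pecam1, Cdh5 and Kdr were at 1016 to 1850, 159 to 315 and 319 to 903 CPM. In mice labelled male, Xist was at 529 and 819 CPM in db/db puerarin 2 and 3 and at 0.519 to 6.47 CPM in the other 9 libraries. Xist is a transcript of female cells, and both libraries are puerarin-treated. In the puerarin comparisons, sex and treatment therefore cannot be told apart for these libraries, and the part of sex was not tested. Values below are listed in the order S184, S185, 2, 3 for db/m vehicle, S152, S153, 1, 3 for db/db vehicle and S144, 2, 3 for db/db puerarin.

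Per kilobase of its highest transcript, Lpl was the most abundant member, and Plin4 the least. Lpl averaged 311 ± 40.1 (SD over 11 libraries) CPM per kb, counted over the highest transcript of each gene, and ranked 215 of 13734 genes. Fabp4 followed at 172 ± 70.9 and Gpihbp1 at 122 ± 52.8 CPM per kb, with ranks 432 and 616. Plin2 came next at 29.6 ± 6.72, then Cd36 at 16.4 ± 3.82 and Fabp5 at 15.7 ± 5.37. In this order Fabp4 and Gpihbp1 lay within an SD of each other, as did Cd36 and Fabp5, and no other neighbours did. The receptor Pparg averaged 5.36 ± 1.14 CPM per kb and Plin4 1.07 ± 0.767, a level under which 4.89% of genes lay. Cd36 stood above Fabp5 in db/m vehicle and below it in both db/db groups, where Fabp5 averaged 18.5 and 18.4 CPM per kb.

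Of the genes whose products act at the capillary surface, Gpihbp1 RNA was higher in both db/db groups than in db/m, and Lpl RNA was level. Gpihbp1, the carrier of lipase, was at 47.9, 58.8, 36.7 and 53.3 CPM in db/m vehicle. In db/db vehicle it was at 109, 108, 81.8 and 71.4 CPM, and in db/db puerarin at 126, 149 and 85.2 CPM. Every db/db library lay above every db/m library, and the puerarin libraries overlapped the db/db vehicle libraries. Group means were 49.2 ± 9.45 (SD, n = 4), 92.5 ± 18.9 (n = 4) and 120 ± 32.4 CPM (n = 3). The fitted log2 difference of db/db vehicle over db/m was 0.90 (SE 0.183), or 1.86-fold, with 1.03 among S-number and 0.79 among group-tag libraries. Puerarin-treated db/db stood 0.45 (SE 0.198) above db/db vehicle and 1.35 (SE 0.197) above db/m on the log2 scale. The first of these was 0.22 among S-number and 0.56 among group-tag libraries, and 0.19 without db/db puerarin 2.

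Lpl, the enzyme that Gpihbp1 holds, was at 764, 760, 842 and 814 CPM in db/m vehicle. In db/db vehicle it was at 856, 776, 825 and 577 CPM, and in db/db puerarin at 968, 788 and 666 CPM. The groups overlapped throughout, with the lowest value in db/db vehicle 3 and the highest in db/db puerarin S144. Log2 differences were -0.08 (SE 0.135) for db/db vehicle over db/m and 0.11 (SE 0.146) for puerarin over db/db vehicle. The ratio of Gpihbp1 to Lpl CPM was 0.0623 ± 0.0140 in db/m vehicle, 0.122 ± 0.0168 in db/db vehicle and 0.149 ± 0.0347 in db/db puerarin.

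**Figure D1:**
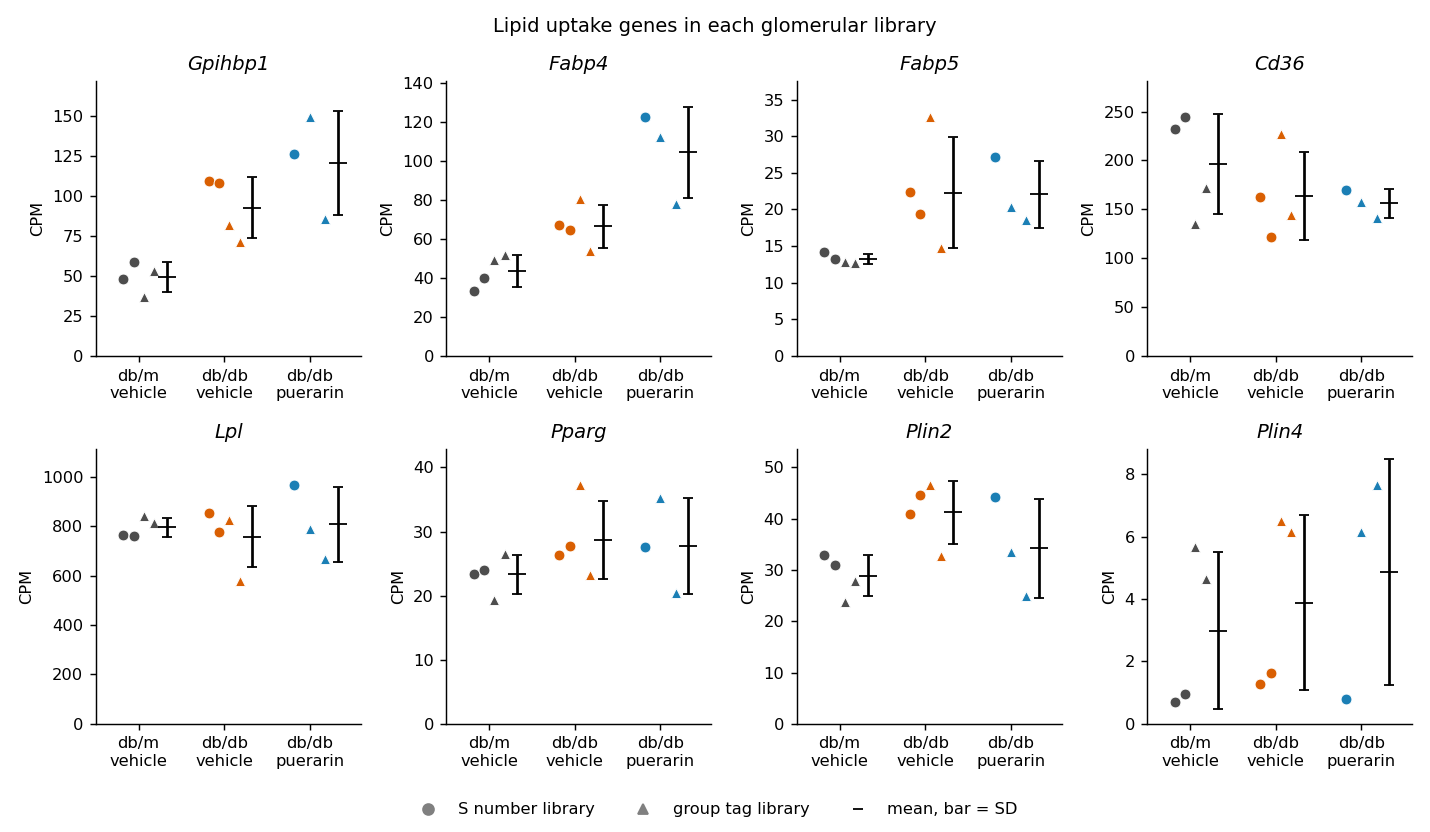
CPM of each of the 8 genes in every library, by group, with 1 point a library marked by name form and a line at the group mean. Gpihbp1, Fabp4 and Fabp5 sit higher in every db/db library than in any db/m library, Fabp4 and Fabp5 narrowly (lowest db/db 53.7 and 14.7 CPM, highest db/m 51.8 and 14.2 CPM), and Plin4 splits by name form within every group.

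Of the uptake and carrier genes, both cytosolic carriers were higher in db/db glomeruli and the surface transporter was not. Cd36, which brings fatty acids across the plasma membrane and is also a scavenger receptor of macrophages, was at 232, 245, 135 and 172 CPM in db/m vehicle. It was at 162, 122, 227 and 145 CPM in db/db vehicle and at 170, 157 and 141 CPM in db/db puerarin. The groups overlapped, and the spread inside db/m was wider than the differences between group means. The log2 difference of db/db vehicle over db/m was -0.24 (SE 0.22), and it changed sign between name forms, at -0.76 among S-number and 0.25 among group-tag libraries. An edgeR test of group by name form called none of the 8 members in any comparison. Of all 13734 genes it called 3 for db/db vehicle over db/m, 1 for puerarin over db/db vehicle and 7 for puerarin over db/m. Members at an unadjusted p under 0.05 in that test were Cd36, Plin4 and Fabp4, 1 in each comparison in this order. The share of all genes at that unadjusted level was not counted. For Cd36, puerarin differed from db/db vehicle by -0.06 (SE 0.235).

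Fabp4, a carrier of endothelial cells, adipocytes and macrophages, was at 33.5, 40.2, 49.2 and 51.8 CPM in db/m vehicle. It was at 67.1, 64.7, 80.8 and 53.7 CPM in db/db vehicle and at 123, 113 and 78.3 CPM in db/db puerarin. Its levels stepped up across the 3 groups, with db/db vehicle 3 only just above db/m and db/db puerarin 3 inside the db/db vehicle range. Means were 43.7 ± 8.43, 66.6 ± 11.1 and 104.5 ± 23.3 CPM. On the log2 scale db/db vehicle exceeded db/m by 0.61 (SE 0.187, 0.85 among S-number and 0.38 among group-tag libraries). Puerarin exceeded db/db vehicle by 0.64 (SE 0.199), by 0.40 without db/db puerarin S144 and by 1.02 without db/db puerarin 2 and 3. Puerarin-treated db/db stood 1.26 (SE 0.199) above db/m, or 2.39-fold. This difference was 1.74 among S-number libraries, where S144 is the only treated library, and 0.89 among group-tag libraries.

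Fabp5, the epidermal-type carrier that many cell types make, was at 14.2, 13.2, 12.8 and 12.6 CPM in db/m vehicle. It was at 22.4, 19.4, 32.6 and 14.7 CPM in db/db vehicle and at 27.2, 20.4 and 18.5 CPM in db/db puerarin. All 7 db/db libraries lay above all db/m libraries, db/db vehicle 3 only just, and db/db vehicle 1 was highest. Means were 13.2 ± 0.694, 22.3 ± 7.60 and 22.0 ± 4.57 CPM. The log2 difference of db/db vehicle over db/m was 0.76 (SE 0.219) and 0.44 without db/db vehicle 1, while puerarin over db/db vehicle was -0.01 (SE 0.235). The Fabp4 to Fabp5 ratio of CPM was 3.34 ± 0.794 in db/m vehicle, 3.12 ± 0.507 in db/db vehicle and 4.75 ± 0.686 in db/db puerarin. Fabp5 has an annotated processed copy, and no source used here gives the handling of reads that match several places.

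Pparg, the receptor, differed little between groups. It was at 23.4, 24.0, 19.3 and 26.6 CPM in db/m vehicle, at 26.4, 27.7, 37.3 and 23.2 CPM in db/db vehicle and at 27.6, 35.3 and 20.4 CPM in db/db puerarin. The groups overlapped, and db/db vehicle 1 was highest. The log2 difference of db/db vehicle over db/m was 0.30 (SE 0.193), or 0.14 without db/db vehicle 1, and that of puerarin over db/db vehicle was -0.05 (SE 0.209). Relative to its receptor, the target Fabp4 stood at a CPM ratio of 1.90 ± 0.479 in db/m vehicle, 2.34 ± 0.153 in db/db vehicle and 3.82 ± 0.632 in db/db puerarin.

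Of the droplet coats, Plin4 separated by library name form and Plin2 did not, while their fitted group differences were close. Plin2, the coat protein that most cell types make, was at 32.8, 31.1, 23.7 and 27.9 CPM in db/m vehicle. It was at 40.9, 44.7, 46.6 and 32.6 CPM in db/db vehicle and at 44.3, 33.5 and 25.0 CPM in db/db puerarin. In the vehicle groups only db/db vehicle 3 reached down to the highest db/m library, and the puerarin libraries spanned both ranges. Means were 28.9 ± 3.99, 41.2 ± 6.18 and 34.3 ± 9.65 CPM. The log2 difference of db/db vehicle over db/m was 0.52 (SE 0.146), with 0.42 and 0.60 inside the name forms. Puerarin over db/db vehicle was -0.24 (SE 0.159), made of 0.05 among S-number and -0.43 among group-tag libraries.

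Plin4, a coat protein best known from adipocytes and muscle, followed the library name form. It was at 0.711, 0.949, 5.66 and 4.63 CPM in db/m vehicle, at 1.28, 1.63, 6.49 and 6.14 CPM in db/db vehicle and at 0.781, 6.15 and 7.66 CPM in db/db puerarin. The 5 S-number libraries averaged 1.07 ± 0.383 CPM and the 6 group-tag libraries 6.12 ± 0.995 CPM, with no overlap. The log2 difference between forms was 2.54 (SE 0.195), or 5.81-fold, and ranked 6 of 13734 genes. By the edgeR test it was the 1 member of 8 past the threshold between forms, and the 1 whose forms did not overlap, as in 5.13% of all genes with the group-tag libraries higher. Group means of Plin4 therefore vary with the forms a group holds, and its fitted differences, 0.54 (SE 0.212) for db/db vehicle over db/m and -0.22 (SE 0.230) for puerarin over db/db vehicle, rest on the term for name form. Without that term the second difference was 0.32.

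**Figure D2:**
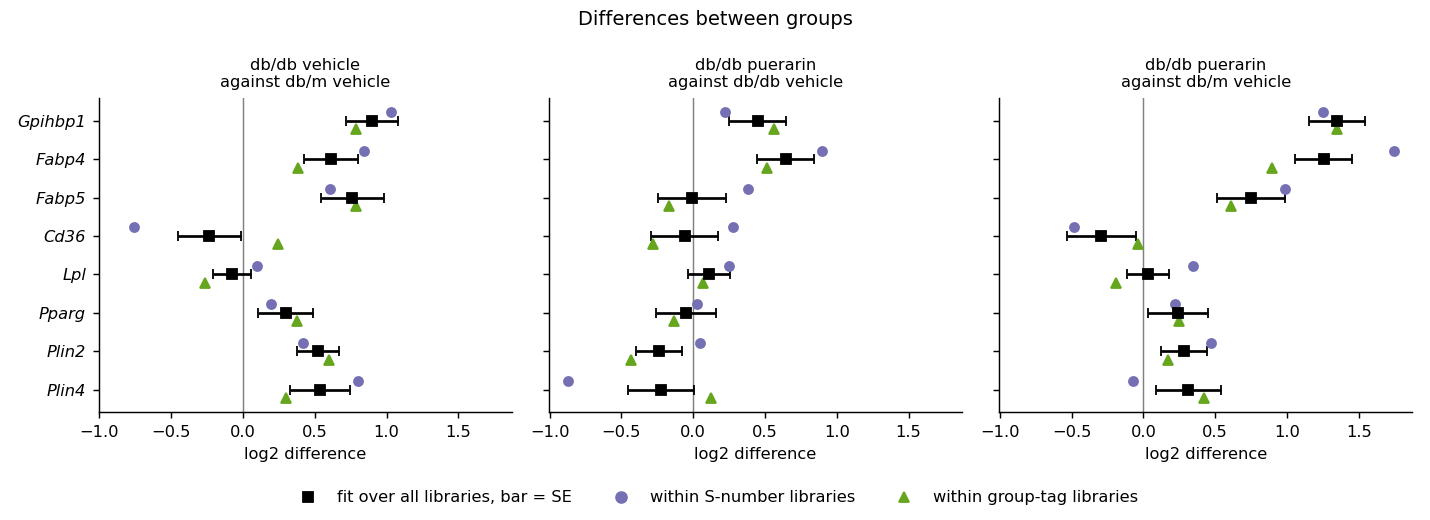
Fitted log2 differences of the 8 genes in 3 comparisons, with SE bars, and the differences inside the S-number and the group-tag libraries as separate marks. Gpihbp1 and Fabp4 stand highest for puerarin-treated db/db over db/m (1.35 and 1.26), and Cd36 has opposite signs in the name forms for db/db vehicle over db/m.

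Over the members together, 6 of 8 were higher in db/db vehicle than in db/m, against 53.5% of all genes, and their median log2 difference was 0.53 against 0.02. Groups did not overlap for Gpihbp1, Fabp4 and Fabp5, all higher in db/db, as happened for 2.48% of all genes in that direction. None of the 8 passed an adjusted p of 0.05 in edgeR, as against 6 genes (0.0437%) of all tested, while 5 had an unadjusted p under that value, all of them higher, against 5.5% of genes, and DESeq2 called 1, Gpihbp1, against 2.11%. Puerarin against db/db vehicle gave 3 of 8 higher by the fitted difference, against 44.7% of genes, with a median of -0.03. The groups overlapped for all 8, whereas 3.23% of all genes did not overlap. There edgeR and DESeq2 called none of the 8, against 0.0% and 0.109% of all genes, and 2 members (Gpihbp1 and Fabp4) had an unadjusted p under 0.05, both higher, against 2.02%. Between puerarin-treated db/db and db/m, 7 of 8 were higher, against 47.7% of genes, and 3 did not overlap, again Gpihbp1, Fabp4 and Fabp5, against 3.73% of genes. There edgeR called 2, Gpihbp1 and Fabp4, against 0.182% of genes, a count that became 0 without the name form term or with these groups fitted alone. DESeq2 called 2, against 2.16%, and 3 had an unadjusted p under 0.05, all higher, against 5.37% of genes. The members were chosen with these contrasts known, and both db/db comparisons with db/m share the same 4 control libraries.

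Gpihbp1 was also set against endothelial genes of the same library, since in whole glomeruli a change in the number of endothelial cells and a change in RNA per cell cannot be told apart. Of the 24 endothelial markers, 8 were higher and 16 lower in db/db vehicle than in db/m, with a median log2 difference of -0.07. Without db/db vehicle 1, 6 were higher and 18 lower, with a median of -0.20. With puerarin against db/db vehicle, 20 were higher and 4 lower (median 0.14). Without db/db puerarin S144 these were 15 and 9 (median 0.05). Their summed CPM ran from 7407 to 11620 in db/m vehicle, 6065 to 10130 in db/db vehicle and 8112 to 11670 in db/db puerarin. The ratio of Gpihbp1 to Cdh5, the endothelial cadherin, was 0.191 ± 0.00450 in db/m vehicle (range 0.187 to 0.195). It was 0.397 ± 0.0861 in db/db vehicle (0.269 to 0.449) and 0.472 ± 0.151 in db/db puerarin (0.367 to 0.645). Against Pecam1, the platelet-endothelial adhesion molecule, Gpihbp1 stood at 0.0337 ± 0.00141, 0.0677 ± 0.0109 and 0.0816 ± 0.0258. The db/m and db/db vehicle libraries did not overlap on the Cdh5 scale, for which no share of all genes was counted.

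**Figure D3:**
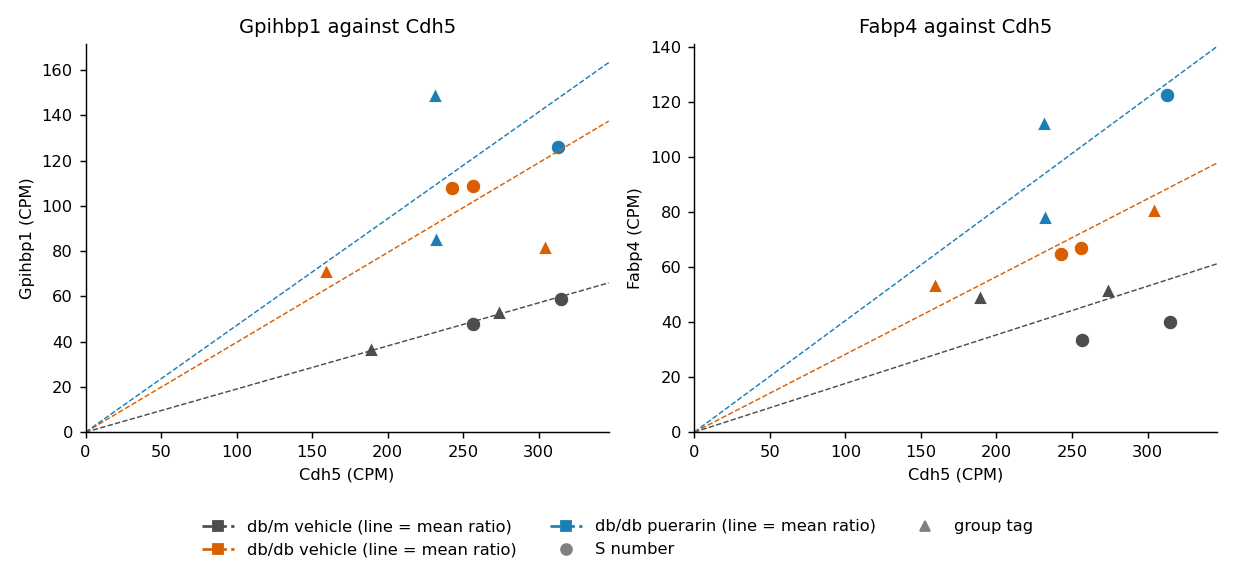
Gpihbp1 and Fabp4 CPM (vertical axes) against Cdh5 CPM (horizontal axes), with 1 point a library coloured by group and shaped by name form, and a line through 0 at each group's mean ratio. The db/m vehicle libraries lie along 1 line, with Gpihbp1 over Cdh5 at 0.187 to 0.195, below all 7 db/db libraries.

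Expressed relative to the endothelial list level (the mean log2 CPM of its 24 genes, each centred), Gpihbp1 was 0.93 higher in db/db vehicle than in db/m, and the groups stayed apart. Fabp5 was 0.72 higher with no overlap, while Fabp4 was 0.64 higher with overlap. On the same scale Plin2 was 0.53 higher in db/db vehicle than in db/m and 0.38 lower in db/db puerarin than in db/db vehicle, in both cases without overlap. Fabp4 was 0.55 higher in db/db puerarin than in db/db vehicle, again without overlap. In CPM, without this adjustment, the groups of these Plin2 and Fabp4 comparisons overlapped. The share of all genes without overlap on the adjusted scale was not counted. The ratio of Fabp4 to Cdh5 CPM was 0.177 ± 0.0626 in db/m vehicle, 0.283 ± 0.0364 in db/db vehicle and 0.405 ± 0.0755 in db/db puerarin.

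Fabp4, Cd36, Plin2 and Pparg are also made by macrophages and adipocytes, so markers of both were read in the same libraries. All 21 myeloid markers were measured and all 21 were higher in db/db vehicle than in db/m in the fit over all libraries. This rested on the group-tag libraries, where all 21 were higher with a median log2 difference of 2.57. Among S-number libraries 8 were higher and 13 lower, with a median of -0.22, and without db/db vehicle 1 the fit had 19 higher and a median of 0.42. Their summed CPM was 166 to 328 in db/m vehicle, 253 to 1240 in db/db vehicle and 229 to 359 in db/db puerarin, and the value of 1240 belonged to db/db vehicle 1. That library also had the highest Fabp5, Pparg and Plin2 of all libraries, and the highest Fabp4 and Cd36 of its group. Cd68, Adgre1 and Csf1r, the defining myeloid genes, ran from 1.70 to 36.7, 1.73 to 21.6 and 11.8 to 69.9 CPM over the libraries. Without db/db vehicle 1 the log2 difference of Cd36 between vehicle groups was -0.47 in place of -0.24. The adipocyte genes Adipoq, Retn and Cfd were not among the genes of the table, and 4 of 17 adipocyte markers were measured (Car3, Cdo1, Lipe and Thrsp). Those 4 summed to 60.0 to 107 CPM in db/m vehicle, 86.3 to 128 in db/db vehicle and 72.3 to 120 in db/db puerarin. The part of other cell types in the members' differences was not tested.

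Counts of several transcripts were added for 4 members, and the transcripts largely share reads. For Cd36 the 4 lower transcripts had 90.0% to 97.4% of the reads of the highest, and for Pparg the 3 lower ones had 84.2% to 97.4%, so no use of their separate starts can be read. Gpihbp1 (chr15:75596658-75598213, plus strand, mm10) had a longer transcript of 797 bases and a shorter one of 427 bases. The shorter held 42.5 ± 3.24% of the reads of the longer in db/m vehicle, 39.6 ± 0.469% in db/db vehicle and 37.3 ± 0.253% in db/db puerarin. Fabp4 (chr3:10204343-10208576, minus strand) and Fabp5 (chr3:10012585-10016610, plus strand) are neighbours on the same chromosome. Of these, Fabp4 had 1 transcript and Fabp5 had 3, the lower with 82.3% and 19.9% of the reads of the highest.

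The genes most like each member across the 11 libraries, by Pearson correlation of log2 CPM over 13709 genes, differed from member to member. For Gpihbp1 they were Sele, the endothelial adhesion molecule E-selectin (r = 0.97, Spearman rho = 0.96), Icam1 (r = 0.96, rho = 0.98) and Hdc, which makes histamine (r = 0.96, rho = 0.96). Sele averaged 4.76, 9.34 and 12.3 CPM and Hdc 5.45, 11.1 and 15.5 CPM in db/m vehicle, db/db vehicle and db/db puerarin. For Fabp4 they were Sorbs3 (r = 0.94), P2rx1 (r = 0.93) and Fosl2 (r = 0.91). For Fabp5 they were Tpx2 (r = 0.96), Bub1b (r = 0.96) and Uhrf1 (r = 0.96), genes of dividing cells. For Plin4 they were Hspb7 (r = 0.97), Krt7 (r = 0.96) and Cnn1 (r = 0.96). Cd36 had no gene above 0.89 (Ugcg), while Lpl reached 0.95 with Stim1, Pparg 0.93 with Itprip and Plin2 0.92 with Axl. The points share 3 groups, 2 name forms and their library depth, and each gene was the best of many.

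The rest of the lipid pathway was read from 5 lists, of which 104 of 129 genes were measured. Between db/db vehicle and db/m, 66 were higher and 38 lower with a median log2 difference of 0.06, and none passed an adjusted p of 0.05 in edgeR. At an unadjusted p under 0.05, 14 were higher and 3 lower, against 5.5% and 4.83% of all genes, and DESeq2 called 6, among them Angptl4, Apoe, Cyp4a14 and Lipa. Among genes of lipoprotein lipolysis, 13 of 16 were higher, with a median of 0.13. Angptl4, the secreted inhibitor of Lpl, was at 17.9, 12.0, 17.4 and 28.8 CPM in db/m vehicle and at 36.8, 36.9, 32.5 and 28.3 CPM in db/db vehicle. Its log2 difference was 0.85 (SE 0.252, edgeR adjusted p = 0.265), and db/db vehicle 3 lay just below db/m vehicle 3. Lipa, the lysosomal lipase, was 0.39 higher (adjusted p = 0.161).

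Targets and partners of the PPAR receptors were higher in db/db vehicle in 21 of 31 genes, with a median of 0.25, and none passed the edgeR test. Cyp4a14, a fatty acid hydroxylase that PPAR alpha induces, was at 1.56 to 1.75 CPM in the 4 db/m vehicle libraries. In db/db vehicle it was at 12.6, 11.5, 1.94 and 17.7 CPM, and in db/db puerarin at 10.3, 35.4 and 21.8 CPM. The groups did not overlap, although db/db vehicle 1 sat next to the controls, and the log2 difference was 2.75 (SE 0.590, edgeR adjusted p = 0.138). The library db/db vehicle 1 had the lowest level of the 17 proximal tubule markers, -1.17 on the centred log2 scale. The other 10 libraries ran from -0.75 to 1.30. The highest was db/m vehicle S184, where Cyp4a14 was at 1.65 CPM, and the db/db puerarin libraries were at -0.46 to -0.26. Without db/db vehicle 1, Cyp4a14 passed the test. Proximal tubule expresses Cyp4a14, and its part in the difference was not tested. Reads of Cyp4a genes may be split among near-identical copies.

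Other lists were closer to even. In lipid droplet and lipase genes 14 of 21 were higher, with a median of 0.06, and Mgll, the monoglyceride lipase, averaged 327 ± 29.7 CPM in the db/m and 389 ± 23.1 CPM in the db/db vehicle libraries without overlap (adjusted p = 0.348). In fatty acid transport and activation 11 of 19 were higher, with a median of 0.05, and the acyl-CoA synthetase Slc27a3 had the lowest adjusted p, 0.427, at a log2 difference of -0.18. Among endothelial regulators of fatty acid transport 8 of 18 were higher, with a median of -0.11. There Foxo1, a transcription factor that insulin signalling restrains, differed by -0.35 (adjusted p = 0.352), and Vegfb, a growth factor that acts on endothelial fatty acid uptake, by 0.38 (adjusted p = 0.564).

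With puerarin against db/db vehicle the same 104 genes were lower more often, with 35 higher and 69 lower, and none passed in edgeR (lowest adjusted p = 0.967) or DESeq2. At an unadjusted p under 0.05, 2 were higher and 3 lower, against 2.02% and 2.19% of all genes. In lipid droplet and lipase genes 16 of 21 were lower (median -0.24), in lipoprotein lipolysis 13 of 16 (median -0.18) and in fatty acid transport 15 of 19 (median -0.05), while 44.7% of all genes were higher. The PPAR list had 14 higher and 17 lower, and the endothelial regulators 9 higher and 9 lower. Within group-tag libraries the 104 genes were closer to even, with 45 higher, 59 lower and a median of -0.03, and the lipid droplet list had 9 higher and 12 lower (median -0.04). Among S-number libraries, where db/db puerarin S144 is the only treated library, 40 were higher and 64 lower (median -0.15), and without that library 39 were higher and 65 lower (median -0.04). The lipid droplet median was then -0.11, that of lipoprotein lipolysis -0.10, and fatty acid transport had 9 higher and 10 lower. That library had the lowest distal nephron marker level of all, -1.88 on the centred log2 scale, and a proximal tubule level of -0.46. Over all libraries 16 of 16 distal nephron and 16 of 17 proximal tubule markers were lower with puerarin, and in group-tag libraries 9 of 16 and 5 of 17 were. The part of tubule RNA in these counts was not tested. Mgll was at 474 ± 32.5 CPM with puerarin, above every db/db vehicle library, with a log2 difference of 0.29. Pnpla2, the lipase that starts triglyceride breakdown, was at 184.6 ± 8.36 CPM with puerarin against 227 ± 29.0 in db/db vehicle, without overlap, and differed by -0.34. Apoe, a ligand of lipoprotein receptors that macrophages also make, was at 660 ± 46.1 against 1333 ± 939 CPM. Of its db/db vehicle values, 2739 CPM came from db/db vehicle 1 and the others were 793 to 935. Puerarin-treated db/db against db/m gave 54 higher and 50 lower, with none past the edgeR test and 3 called by DESeq2 (Cyp4a14, Mgll and Pnpla2). At an unadjusted p under 0.05, 7 were higher and 4 lower, against 5.37% and 4.89% of all genes. The lowest edgeR adjusted p was 0.0608, for Cyp4a14 (log2 difference 3.69) and Mgll (0.55).

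**Figure D4:**
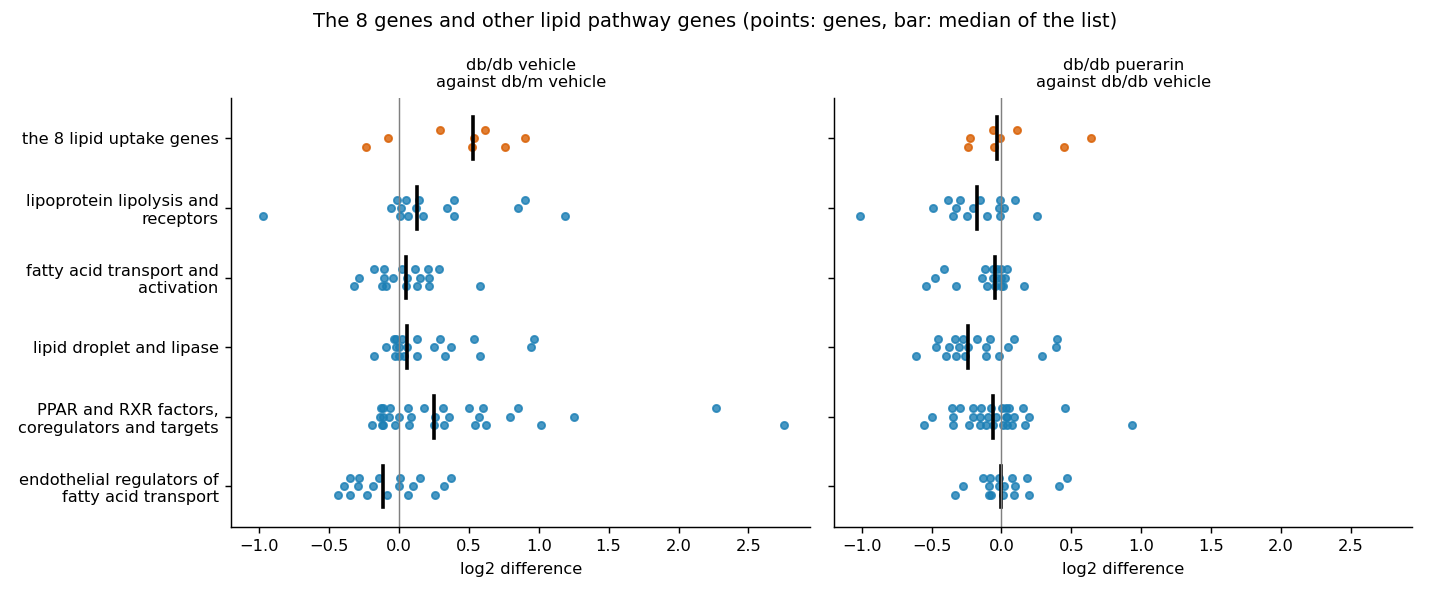
Log2 differences of the 8 genes and of every measured gene of the 5 lipid pathway lists in 2 comparisons, with a mark at each list's median and a line at 0. Of the 5 lists, PPAR factors and targets have the highest median (0.25) for db/db vehicle over db/m, and lipid droplet and lipase genes the lowest (-0.24) for puerarin over db/db vehicle.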

How the data were processed

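RNA of isolated glomeruli was read in 11 libraries, grouped by their titles and labels. RNA with an integrity value over 7.5 was used, per the labels' protocols. The submitters' processing notes name BWA, limma and the build mm10. The counter and its strand setting are not given in the sources used. The deposited counts are whole reads for 22320 RefSeq transcripts. The deposited log2 values, made by the authors, equal the log2 of these counts plus a constant per library and served as a check only. Of the count columns, 4 belonged to no sample and were not used. Blank cells (13) were read as 0, and 50 symbols that had become dates were restored. The lowest maximum of any transcript over the 11 libraries was 69 counts, so weakly expressed genes are not in the table.

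Counts were summed per symbol to 13734 genes, 4562 of them with more than 1 transcript, which counts shared reads more than once. The test was edgeR 4.0.16 in R 4.3.3 (quasi-likelihood, TMM factors) over all 11 libraries with terms for group and name form, and with residual df of 7 and prior df of 3.14. P-values were two-sided and adjusted by Benjamini-Hochberg over all genes, with a threshold of 0.05. A gene needed a count of 1 in 3 libraries, which removed none. The SE of a log2 difference was derived from the F statistic. CPM values are means ± SD over libraries, and log2 CPM used a prior count of 0.5. DESeq2 1.42.0, other scalings and filters, the highest transcript alone, other designs and leaving out libraries were the alternatives. The fit was tested on simulated counts.

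The members, the 5 pathway lists and the 7 cell type lists were chosen with earlier results of these data known. Named were all members and, from each pathway list, the 3 genes of lowest p for db/db vehicle over db/m and the 2 of lowest p for puerarin over db/db vehicle, except for a few that are not reported here. The 3 most correlated genes were taken for each member among genes with a mean of at least 1 CPM. Promoter sequences are from RefSeq, with the bases after the RefSeq start left out. Genome coordinates of transcripts are the deposited ones, counted from 1.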

Additional observations from a re-analysis of the deposited data

How the results depend on the processing

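The count of other lipid pathway genes past the test was 0 for db/db vehicle over db/m. It ran from 0 to 2 when a replicate was left out, 2 without db/db vehicle 1, Cyp4a14 among them. DESeq2 gave 6. Of all genes, 6 passed in the main fit, 82 without db/db vehicle 1 and 290 by DESeq2. For puerarin-treated db/db over db/m the pathway count was also 0, with 0 to 3 when a replicate was left out. It was 3 by DESeq2 and 1 when only the 2 groups were fitted. There 25 of all genes passed in the main fit, 297 by DESeq2 and 5 with only the 2 groups. With the replicate number as a block (replicate block) the pathway counts were 2 and 2, beside 56 and 49 of all genes. Only db/db vehicle 1 carries its number, so its own block term fits it fully and it adds nothing to the group differences. The replicate block is therefore not independent of leaving that library out. Puerarin over db/db vehicle gave 0 pathway genes throughout. The number of members with a positive log2 difference for puerarin over db/db vehicle was 3. It was 6 with the replicate block, 6 without db/db puerarin 2 and 3 together, 7 in S-number libraries and 3 to 6 when a replicate was left out. The added count of members past the test, an alternative chosen after seeing the data, was 1 by DESeq2 for db/db vehicle over db/m in place of 0. For puerarin-treated db/db over db/m it was 2 in the main analysis, 1 with DESeq2 size factors, 1 with the highest transcript, 0 without the name form term, 0 with only the 2 groups, 0 without db/db puerarin 2 and 3 together and 0 to 3 when a replicate was left out (3 without db/db vehicle 1). Over all genes, this last comparison had 25 past the test in the main analysis, 24 with DESeq2 size factors and 20 with the highest transcript. It had 5 with only the 2 groups and 74 without db/db vehicle 1. The causes of these changes were not tested. Deviations of same-numbered libraries from the mean of their group and name form had correlations of -0.113 to 0.0563. Each such mean rests on 2 group-tag libraries, whose deviations mirror each other. The check therefore cannot decide whether the numbers pair samples. The differences of Gpihbp1 and Fabp4 between puerarin-treated db/db and db/m kept their sign in all 22 alternatives. How far sequencing depth limits these results was not measured.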
